A study of Mus musculus with 12 samples.

Results

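The apolipoproteins and the microsomal triglyceride transfer protein were followed as 10 genes (Apoa1, Apoa2, Apoa4, Apoa5, Apob, Apoc1, Apoc2, Apoc3, Apoe and Mttp), taken by gene name with earlier results of these data known. All 10 were listed among the 20775 genes of the table for chow livers and the 22709 genes of the table for livers of mice on HFCF, a diet rich in fat, cholesterol and fructose, which have 20093 genes in common. Bulk RNA sequencing covered 12 livers in 4 groups of 3, namely chow WT, chow HuRHep-/-, HFCF WT and HFCF HuRHep-/-. By the labels, every mouse was a C57BL/6N male of 4 to 6 months with floxed Elavl1 alleles, the gene that encodes the RNA-binding protein HuR. WT mice had received AAV8-Tbg-null, a virus without Cre, and HuRHep-/- mice AAV8-Tbg-Cre, which carries Cre under the hepatocyte promoter Tbg, so that the floxed alleles and a virus were common to both genotypes. The study's methods name a cross with albumin-Cre mice in place of the virus, and younger mice. The HFCF diet held 40 kcal% fat, 2% cholesterol and 20 kcal% fructose and was given for 16 weeks. The labels number the livers within a group without saying how mice were paired or batched. The p-values draw on these livers alone, and the test pulls the spread of each gene toward a trend over all genes.

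Apolipoproteins are the protein coats of lipoproteins. The hepatocyte builds very low density lipoprotein (VLDL) on Apob, to which Mttp transfers triglyceride in the endoplasmic reticulum, and secretes the precursors of high density lipoprotein (HDL) with Apoa1 and Apoa2. The smaller apolipoproteins move between particles, where Apoc2 activates and Apoc3 restrains lipoprotein lipase, Apoa5 aids lipolysis, Apoa4 is made mainly by the gut and by the liver under lipid load, and Apoe is the ligand for uptake by the liver.

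The targeted gene was examined first. Raw counts on Elavl1 were 938, 876 and 948 in chow WT livers and 1475, 1265 and 1261 in chow HuRHep-/- livers. They were 904, 791 and 849 in HFCF WT and 1299, 1242 and 1271 in HFCF HuRHep-/- livers. The livers labelled HuRHep-/- thus lay above those labelled WT under both diets, with log2 fold changes of 0.41 (adjusted p = 0.0219) and 0.38 (adjusted p = 0.0327) from limma. With a liver left out in turn the call held in 2 of 6 fits in chow and 1 of 6 in HFCF, at log2 fold changes of 0.36 to 0.44 and 0.36 to 0.45. This goes against the label, and every direction given for genotype rests on the labels as they stand. Counts are per gene, so that the floxed part was not read on its own.

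Libraries held 30071731 to 35949203 counts. Counts were scaled to CPM, counts per 1000000 counts of the library, with TMM factors, and comparisons were made with limma on log2 CPM, with Benjamini-Hochberg adjustment over all genes tested and a call at an adjusted p of at most 0.05. A call that also had a fold change of at least 1.5 was named a differentially expressed gene (DEG). Hepatocyte markers were abundant in all groups, with 10 of 10 detected and a summed level of 80830 to 142100 CPM. Calls over all genes moved with single livers left out, to 9 to 535 in place of 572 for genotype in chow (9 without chow HuRHep-/- replicate 2) and 28 to 1280 in place of 971 for genotype in HFCF (28 without HFCF HuRHep-/- replicate 1).

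All members but Apoa2, Apob and Mttp lie in a pair of clusters. On chromosome 9 of GRCm38, Apoa1 (46228580 to 46230466), Apoc3 (46232933 to 46235636), Apoa4 (46240696 to 46243459) and Apoa5 (46268633 to 46271919) span 43340 bases. On chromosome 7, Apoc2 (19671579 to 19677941), Apoc4, Apoc1 (19689481 to 19692660) and Apoe (19696109 to 19699188) span 27610 bases. Apoa2 (chromosome 1, 171225054 to 171226379), Apob (chromosome 12, 7977648 to 8016835) and Mttp (chromosome 3, 138089854 to 138144968) stand alone. Apoa4 and Apoc2 rose with the HFCF diet, while no other member in their clusters was called as a rise with the settings used here. The bases just before those genes, and before Apob, which fell in 1 group, are shown from the RefSeq table of promoters (GRCm38.p6), in lower case with motif matches in capitals. Each run ends at the first base before the annotated gene start and runs 5′ to 3′ on the gene's strand. The capitals mark CAAAGTTCA, a sequence of the kind bound by HNF4A, in Apoa4, the nuclear receptor half-site AGGTCA in Apoc2, and TATAAA in Apob.
Apoa4, chr9:46240594-46240695, plus strand: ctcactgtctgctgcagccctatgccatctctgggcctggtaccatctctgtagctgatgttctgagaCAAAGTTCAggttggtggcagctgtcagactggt
Apoc2, chr7:19677942-19678082, minus strand: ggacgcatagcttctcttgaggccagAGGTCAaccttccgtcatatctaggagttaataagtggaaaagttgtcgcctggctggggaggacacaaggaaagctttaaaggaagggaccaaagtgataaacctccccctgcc
Apob, chr12:7977427-7977647, plus strand: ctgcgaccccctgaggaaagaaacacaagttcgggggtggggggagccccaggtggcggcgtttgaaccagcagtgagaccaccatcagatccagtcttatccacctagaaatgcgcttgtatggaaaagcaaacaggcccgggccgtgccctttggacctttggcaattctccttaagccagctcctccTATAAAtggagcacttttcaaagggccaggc

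The 141 bases before Apoc2 are the whole gap to Apoc4, its upstream neighbour. Of the 32851 promoter windows in the table, on either strand, 0.39% held CAAAGTTCA, 0.475% the related CAAAGTCCA, 16.3% AGGTCA, 13.6% TATAAA and 7.15% CACGTG. These 5 motifs were picked after the sequences had been read. CAAAGTTCA was found in the window of Apoa4 and in that of no other member with a RefSeq entry. Entries were used for 8 members, and Apoc1 and Apoc3 had none. The other marked motifs were not particular to their genes, as AGGTCA also stood in a window of Apoa2, and TATAAA in windows of Apoa2, Apoa5 and Apoe. A match is a description of the letters and not of binding.

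Together the 10 genes took 4.11% to 4.62% of all counts in chow WT livers, 3.83% to 3.89% in chow HuRHep-/-, 5.14% to 5.48% in HFCF WT and 5.08% to 5.39% in HFCF HuRHep-/- livers. The shares of the chow groups did not overlap, whereas those of the HFCF groups did. Apoe alone held 43.9% of the members' counts in chow WT and 49.6% in HFCF HuRHep-/- livers. Apoa4 went from 0.192% of the members' counts in chow WT to 0.576% in chow HuRHep-/-, 4.7% in HFCF WT and 5.96% in HFCF HuRHep-/- livers.

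Per kb of exon, Apoa2, Apoe and Apoa1 led in every group, followed by Apoc1, and Mttp was lowest. In chow WT livers the mean levels were 14050 ± 1989 CPM per kb for Apoa2, 9973 ± 664 for Apoe, 8447 ± 748 for Apoa1, 3644 ± 442 for Apoc1, 1695 ± 118 for Apoc3, 557 ± 74.4 for Apoa5, 212 ± 16.2 for Apob, 205 ± 19.1 for Apoc2, 51.2 ± 3.78 for Apoa4 and 37.6 ± 1.16 for Mttp (SD, n = 3). Of the neighbours in this order, only Apob and Apoc2 overlapped. Apoa4 stood in place 9 of 10 in both chow groups, in place 6 in HFCF WT livers (1352 ± 355 CPM per kb) and in place 5 in HFCF HuRHep-/- livers (1532 ± 161), overlapping Apoc3 in both HFCF groups. Apoc2 also overlapped Apoa5 in HFCF WT livers and stood above it without overlap in HFCF HuRHep-/- livers (752 ± 62.3 against 509 ± 11.7). Apoa2 and Apoe overlapped in HFCF HuRHep-/- livers and in no other group. Over the 12 livers the SD of log2 CPM was 2.25 for Apoa4 and 0.80 for Apoc2, against 0.16 to 0.29 for the other 8 genes.

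**Figure D1:**
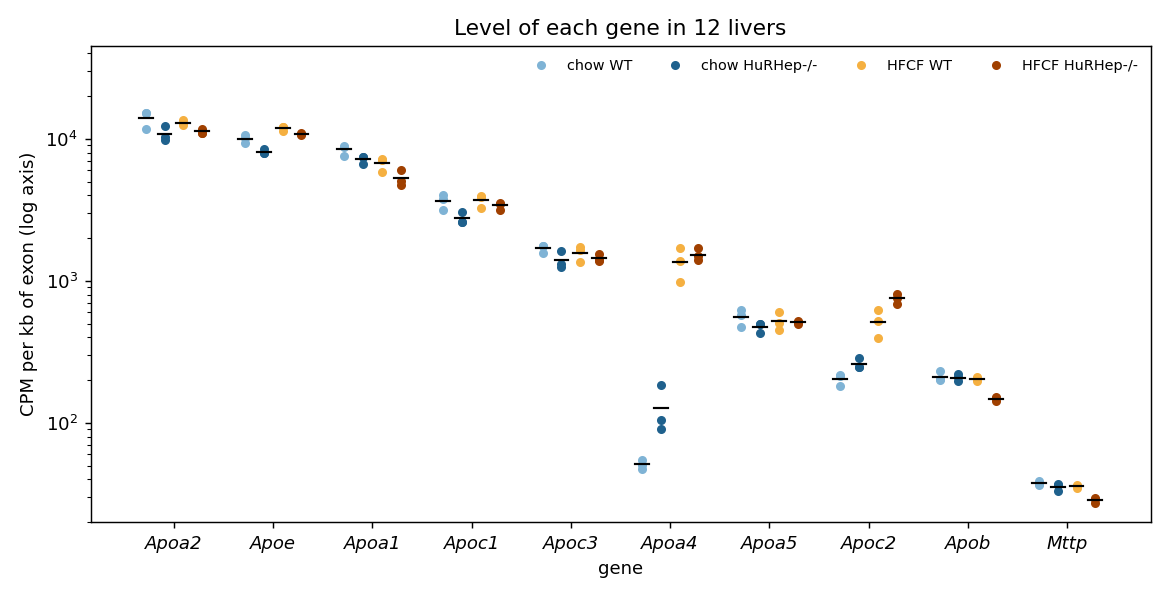
CPM per kb of exon on a log axis for each gene, with 1 point per liver (n = 3 per group), a bar at the group mean and colours for the groups. Apoa4 runs from 47.7 in a chow WT liver to 1711 in an HFCF HuRHep-/- liver, Apoc2 from 183 to 814, and the other genes stay within a narrow band.

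The HFCF diet was first set against chow within each genotype. Apoa4 rose 25.8-fold in WT and 12.7-fold in HuRHep-/- livers, and Apoc2 rose 2.48-fold and 2.89-fold. In HuRHep-/- livers Apob, Mttp and Apoa1 fell to 0.711, 0.807 and 0.729 of the chow level. The members called were 2 of 10 in WT livers, where 24.1% of the genes tested were called, and 5 of 10 in HuRHep-/- livers, where 38.9% were. Apoa4 and Apoc2 were DEGs in both, beside 9.38% and 19.1% of all genes. Groups did not overlap for 5 members in WT (37.6% of all genes) and for 7 in HuRHep-/- livers (54.6%). The median log2 fold change of the members was -0.055 in WT and 0.087 in HuRHep-/- livers, with medians over all genes of 0.0095 and 0.0022. Chow and HFCF counts come from separate tables, so that diet and table cannot be told apart, and in bulk liver fewer cells of a type and less RNA per cell cannot be told apart either.

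Apoa4 encodes apolipoprotein A-IV, carried on chylomicrons and HDL. It had 86.6, 92.1 and 100.2 CPM in chow WT livers and 334, 190 and 164 CPM in chow HuRHep-/- livers. It had 3075, 1789 and 2499 CPM in HFCF WT and 2538, 2697 and 3106 CPM in HFCF HuRHep-/- livers. Every HFCF liver was above every chow liver, and the chow groups did not overlap, whereas the HFCF groups did. The log2 fold change with diet was 4.69 in WT (standard error 0.24, adjusted p = 3.8e-06) and 3.66 in HuRHep-/- livers (standard error 0.24, adjusted p = 2.07e-05). With any single liver left out it stayed between 4.51 and 4.90 in WT and between 3.46 and 3.97 in HuRHep-/- livers, and it was called in 6 of 6 fits for each. Of all 14535 genes, Apoa4 had the smallest p for diet in WT livers.

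Apoc2 encodes the cofactor that switches on lipoprotein lipase. Its CPM was 176.7, 148 and 174 in chow WT and 232, 201 and 201 in chow HuRHep-/- livers. It was 427, 320.3 and 507 in HFCF WT and 560.3, 611 and 662 in HFCF HuRHep-/- livers. The 4 groups followed one another without overlap in that order. With diet the log2 fold change was 1.31 in WT (standard error 0.14, adjusted p = 0.000272) and 1.53 in HuRHep-/- livers (standard error 0.14, adjusted p = 7.25e-05), and it was called with every single liver left out. Of the exon bases of Apoc2, 79.5% are shared with Gm44805, a readthrough gene on the same strand, which makes the split of reads between them uncertain. Gm44805 held 10 to 356 counts per liver against 4437 to 24565 on Apoc2, and with the counts of both summed the log2 fold changes were 1.26 and 1.51.

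Apob encodes the structural protein of VLDL. Its CPM was 3210, 2827 and 2807 in chow WT, 3060, 2916 and 2737 in chow HuRHep-/-, 2905, 2740 and 2938 in HFCF WT and 2079, 2137 and 1974 in HFCF HuRHep-/- livers. The last 3 livers lay below the other 9. With diet it changed on the log2 scale by -0.04 in WT (adjusted p = 0.785) and -0.49 in HuRHep-/- livers (standard error 0.095, adjusted p = 0.00247). In Mttp as well the HFCF HuRHep-/- livers lay below the other 9. Its CPM was 229, 229 and 242 in chow WT, 205, 227 and 230.3 in chow HuRHep-/-, 229, 217 and 222 in HFCF WT and 183, 181 and 170.1 in HFCF HuRHep-/- livers. With diet Mttp had a log2 fold change of -0.07 in WT (adjusted p = 0.449) and -0.31 in HuRHep-/- livers (standard error 0.062, adjusted p = 0.00283). With library totals in place of TMM factors the median over all genes moved to 0.23 in HuRHep-/- livers, where Apob was at -0.26 (adjusted p = 0.0444) and Mttp, at -0.08 (adjusted p = 0.318), was not called. Of the exon bases of Mttp, 9.49% are overlapped by genes on the opposite strand.

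Apoa1, the main protein of HDL, had 10890, 9377 and 11060 CPM in chow WT and 8740, 8961 and 7203 CPM in HFCF WT livers. It had 8176, 9248 and 9260 CPM in chow HuRHep-/- and 6252, 5805 and 7458 CPM in HFCF HuRHep-/- livers. HFCF livers lay below chow livers in both genotypes. The log2 fold change was -0.33 in WT (adjusted p = 0.142) and -0.46 in HuRHep-/- livers (standard error 0.16, adjusted p = 0.0373), and the latter was called in 1 of the 6 fits without a liver, that without HFCF HuRHep-/- replicate 3 (adjusted p between 0.0309 and 0.134 over the 6). It was not called with library totals (-0.23, adjusted p = 0.187), upper-quartile factors (-0.38, adjusted p = 0.0603) or no filter on low counts (-0.48, adjusted p = 0.0537). Apoe had 19820 to 22650 CPM in chow WT, 16860 to 18180 in chow HuRHep-/-, 24400 to 25930 in HFCF WT and 22790 to 23470 in HFCF HuRHep-/- livers, so that HFCF groups lay above chow groups. Its log2 fold change of 0.25 in WT (adjusted p = 0.320) and 0.42 in HuRHep-/- livers (adjusted p = 0.0838) did not pass. The other 4 genes (Apoa2, Apoa5, Apoc1 and Apoc3) had log2 fold changes of -0.11 to 0.02 in WT and 0.06 to 0.30 in HuRHep-/- livers, none of them called. Apoc1, which Apoe neighbours, had the largest of these (0.30, adjusted p = 0.0694). With voom weights Apoe was called as a rise in both genotypes (adjusted p = 0.0418 and 0.00233) and Apoc1 in HuRHep-/- livers (adjusted p = 0.0469).

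**Figure D2:**
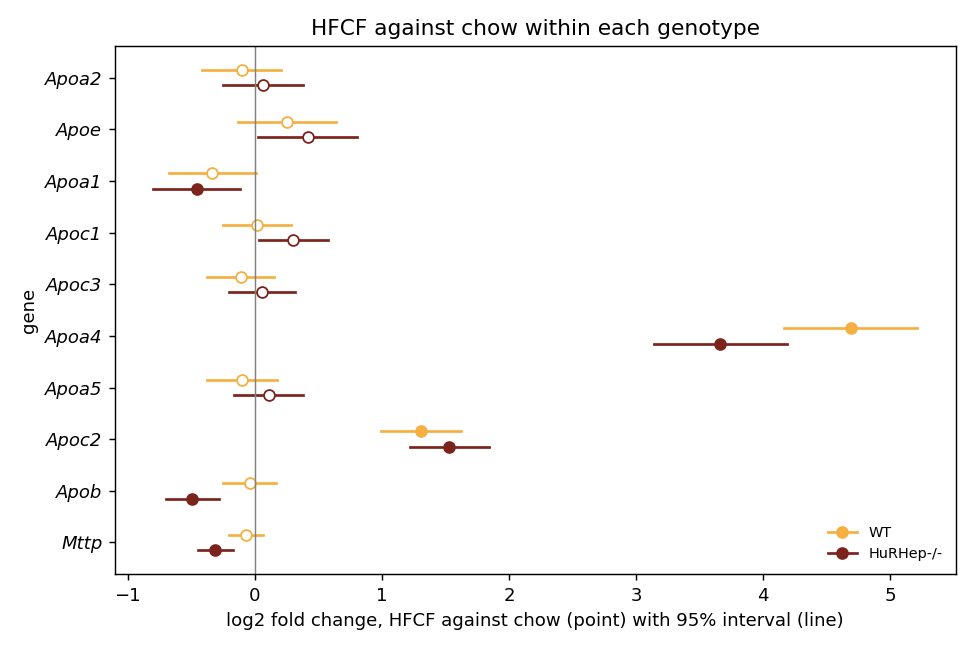
Log2 fold change of each gene for HFCF against chow in WT (n = 3 against 3) and HuRHep-/- livers (n = 3 against 3), with lines for the 95% interval and filled points for an adjusted p of at most 0.05. Apoa4 (4.69 and 3.66) and Apoc2 (1.31 and 1.53) stand to the right of the other 8 genes, and Apob, Mttp and Apoa1 are filled to the left of 0 in HuRHep-/- livers alone.

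Genotype was then compared within chow. The livers labelled HuRHep-/- held 2.36 times as much Apoa4 RNA as WT livers. It was the only member called of 10, and a DEG, where 4.23% of the 13526 genes tested were called and 2.24% were DEGs. Estimates were higher for 2 members (Apoa4 and Apoc2) and lower for 8, and groups did not overlap for 5 (Apoa1, Apoa4, Apoc1, Apoc2 and Apoe), beside 29.5% of all genes. The median log2 fold change of the members was -0.22, with a median over all genes of 0.0047. Apoa4 differed by 1.24 on the log2 scale (standard error 0.23, adjusted p = 0.0325). Chow HuRHep-/- replicate 1 was the highest of the 3, and without it the log2 fold change was 0.93 (adjusted p = 0.0233). The call was lost without WT replicate 1, 2 or 3 or HuRHep-/- replicate 2 (adjusted p = 0.0988, 0.0605, 0.0859 and 0.107), at log2 fold changes of 1.19 to 1.34. For a single gene, 3 livers against 3 allow no p below 0.1 in an exact permutation test.

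Apoc2 was 1.28 times the WT level in chow HuRHep-/- livers, which lay above all WT livers without passing the test (log2 fold change 0.35, standard error 0.090, adjusted p = 0.0726). Its neighbour Apoc1, an inhibitor of lipoprotein lipase and of lipid transfer, had the lowest estimate, with 2821, 2342 and 2971 CPM in WT and 1945, 1942 and 2273 CPM in HuRHep-/- livers (log2 fold change -0.39, adjusted p = 0.112). The log2 fold change was -0.37 for Apoa2 (adjusted p = 0.212), -0.29 for Apoe (adjusted p = 0.368), -0.28 for Apoc3 (adjusted p = 0.195), -0.22 for Apoa1 (adjusted p = 0.406) and -0.22 for Apoa5 (adjusted p = 0.295). Apob (-0.01, 95% interval -0.26 to 0.23) and Mttp (-0.07, 95% interval -0.23 to 0.08) had the estimates nearest to 0.

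Under HFCF, the members called with genotype were the pair that starts VLDL assembly. Apob was at 0.713 and Mttp at 0.791 of the WT level in livers labelled HuRHep-/-, and in both genes all 3 HuRHep-/- livers lay below all 3 WT livers. These 2 of 10 members were called, with 6.79% of the 14295 genes tested called, and 0 were DEGs, with 3.62% of all genes DEGs. Estimates were lower for 8 members, the median log2 fold change was -0.14 (all genes -0.0015), and groups did not overlap for 5 members (Apoa2, Apob, Apoc2, Apoe and Mttp), beside 36.8% of all genes. The log2 fold change was -0.49 for Apob (standard error 0.095, adjusted p = 0.0355) and -0.34 for Mttp (standard error 0.061, adjusted p = 0.0299). The call of Apob was lost without any single liver but WT replicate 2, and that of Mttp without WT replicate 1 or any HuRHep-/- replicate, with adjusted p between 0.0305 and 0.149 for Apob and between 0.0348 and 0.117 for Mttp, at log2 fold changes of -0.52 to -0.45 for Apob and -0.36 to -0.30 for Mttp. With library totals in place of TMM factors the median over all genes moved to 0.15, and Apob (-0.34, adjusted p = 0.0725) and Mttp (-0.19, adjusted p = 0.115) were not called.

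The other 8 members were not called in HFCF livers. Apoc2 again lay higher in HuRHep-/- livers without overlap (1.47 times the WT level, log2 fold change 0.55, standard error 0.16, adjusted p = 0.0807). Apoa4 had a log2 fold change of 0.19 (95% interval -0.28 to 0.67, adjusted p = 0.557), which went to -0.018 without WT replicate 2. The estimates were -0.37 for Apoa1 (adjusted p = 0.196), -0.22 for Apoa2 (adjusted p = 0.288), -0.15 for Apoe (adjusted p = 0.661), and -0.13, -0.13 and -0.04 for Apoc3, Apoc1 and Apoa5. The SD of Apoe was 3.40% of its mean in HFCF WT and 1.47% in HFCF HuRHep-/- livers. Its standard error on the log2 scale was 0.21, as limma pulls the spread toward the trend over all genes.

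**Figure D3:**
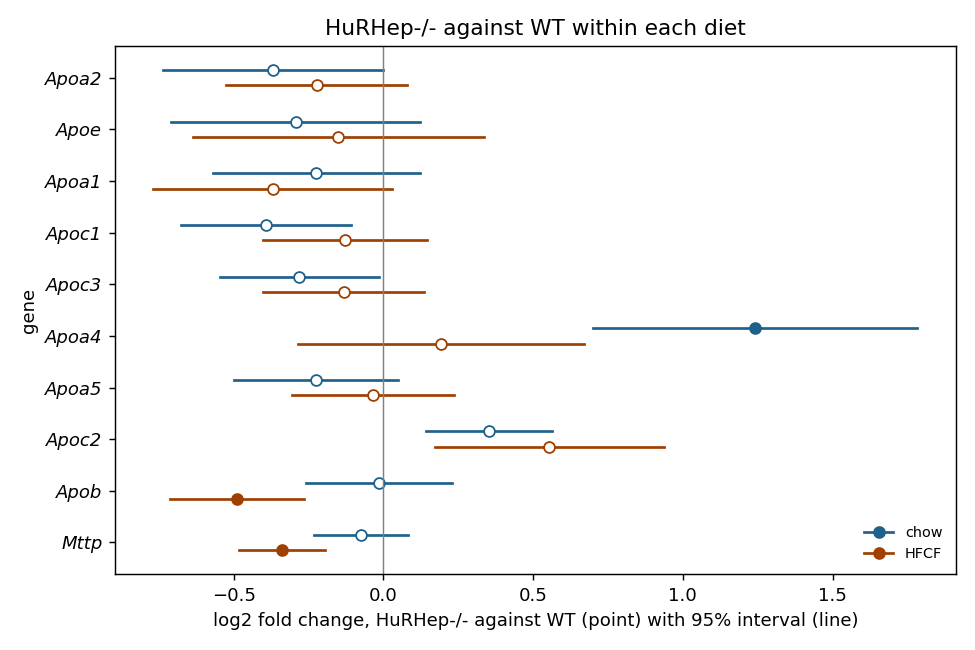
Log2 fold change of each gene for HuRHep-/- against WT in chow and in HFCF livers (n = 3 per group), with lines for the 95% interval and filled points for an adjusted p of at most 0.05. In chow Apoa4 (1.24) is filled, and in HFCF Apob (-0.49) and Mttp (-0.34) are, while Apoc2 lies to the right of 0 under both diets with open points (0.35 and 0.55).

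Whether the genotype difference itself changed with diet was tested as an interaction over the 12 livers. None of the 10 members was called, nor was any of the 14535 genes tested with limma (0%), although 2086 genes had an unadjusted p under 0.05. Voom weights called 1 gene, no filter on low counts 1 and library totals in place of TMM factors 11, and of the 12 fits without a liver 3 made calls, with 41 genes without HFCF WT replicate 3, 2 without chow WT replicate 2 and 1 without chow HuRHep-/- replicate 3. Among the members the smallest p belonged to Apob (difference of log2 fold changes -0.45, standard error 0.13, unadjusted p = 0.0059, adjusted p = 0.204), Apoa4 (-1.03, standard error 0.34, unadjusted p = 0.0109, adjusted p = 0.230) and Mttp (-0.24, standard error 0.087, unadjusted p = 0.0168, adjusted p = 0.259). The genotype effects in chow and in HFCF were therefore not shown to differ. The comparisons of diet use the same livers as those of genotype and are not independent of them.

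Ratios between genes within a liver do not depend on how libraries are scaled, and were chosen after the values had been seen. Per length, Apoa4 stood at 0.609 ± 0.064 per 100 Apoa1 in chow WT, 1.80 ± 0.86 in chow HuRHep-/-, 20.4 ± 5.89 in HFCF WT and 29.2 ± 2.13 in HFCF HuRHep-/- livers (SD, n = 3). The groups did not overlap, with 13.6 to 24.0 in HFCF WT and 27.6 to 31.6 in HFCF HuRHep-/- livers. Per 100 Apoc3, Apoa4 stood at 3.03 ± 0.28 in chow WT, 9.30 ± 4.26 in chow HuRHep-/-, 88.3 ± 33.1 in HFCF WT and 106 ± 15.3 in HFCF HuRHep-/- livers. By this ratio the HFCF genotypes overlapped, with 60.0 to 125 in WT and 95.9 to 124 in HuRHep-/- livers, and the chow genotypes did not. Apoc2 stood at 5.63 ± 0.24 per 100 Apoc1 in chow WT, 9.49 ± 1.41 in chow HuRHep-/-, 14.1 ± 3.54 in HFCF WT and 22.2 ± 3.16 in HFCF HuRHep-/- livers, with overlap between the middle pair of groups. Against Apoc4, which lies next to it, Apoc2 had 23.9 ± 0.95 reads per 100 in chow WT and 102 ± 11.7 in HFCF HuRHep-/- livers. Apob per 100 Apoe was 2.13 ± 0.20 in chow WT, 2.58 ± 0.24 in chow HuRHep-/-, 1.73 ± 0.10 in HFCF WT and 1.37 ± 0.046 in HFCF HuRHep-/- livers. Apoc1 per 100 Apoe moved less, from 36.5 ± 2.16 in chow WT to 31.5 ± 1.44 in HFCF HuRHep-/- livers.

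**Figure D4:**
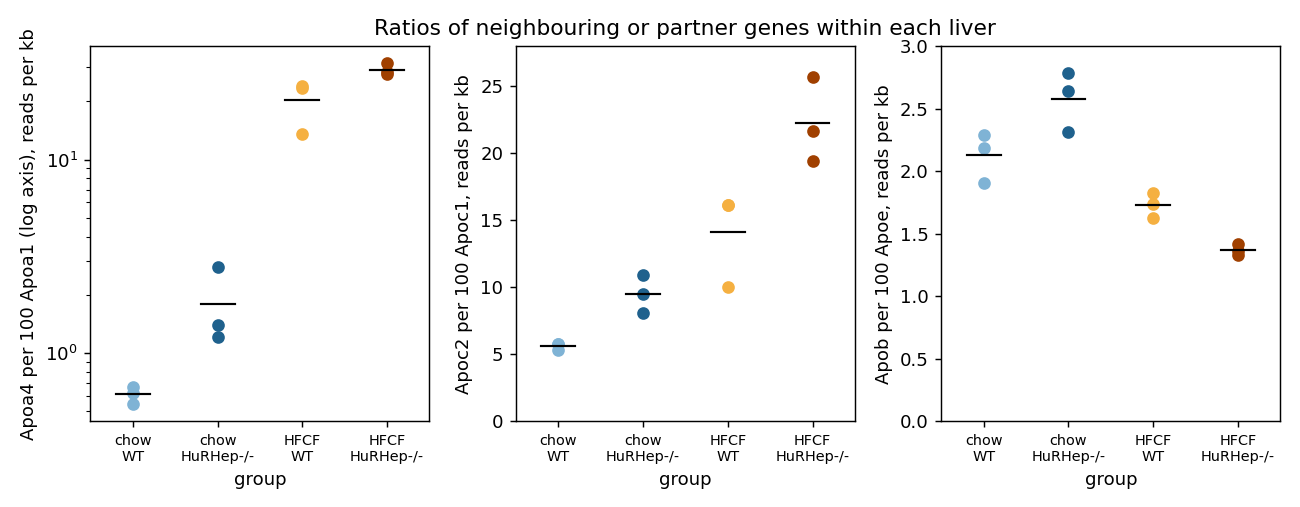
Reads per kb of 1 gene per 100 of another in each liver (points, n = 3 per group) with bars at the mean, for Apoa4 against Apoa1 on a log axis, Apoc2 against Apoc1, and Apob against Apoe. Apoa4 against Apoa1 climbs from 0.609 in chow WT to 29.2 in HFCF HuRHep-/- livers, and Apob against Apoe is lowest in HFCF HuRHep-/- livers (1.37).

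The 5 genes closest to Apoa4, the most variable member, were ranked by the root mean square difference of centred log2 CPM over the 12 livers among 10207 genes. Closest was Gm10680 (0.19), which overlaps Apoa4 on the opposite strand. Of the exon bases of Apoa4, 69.8% are covered by opposite-strand genes, and Gm10680 held 7.75 ± 1.02 reads per 100 on Apoa4 in chow WT, 6.81 ± 0.83 in chow HuRHep-/-, 7.45 ± 1.68 in HFCF WT and 7.52 ± 0.76 in HFCF HuRHep-/- livers (SD, n = 3). The library kit was stranded, and the alignment was set to the reverse strand. Cntnap1 (0.53), Cdkn1a (0.66), Ephb2 (0.69) and Stap1 (0.70) followed, all below 30 CPM in each group's mean. The rule, the same scale and the 4 groups give this list, which says nothing of shared control.

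Other genes of lipoprotein handling were read from 6 lists. Their counts of calls stand beside the shares of all genes called. With genotype these shares were 4.23% in chow and 6.79% in HFCF, and with diet 24.1% in WT and 38.9% in HuRHep-/- livers. Among 12 partners of VLDL assembly and secretion, 1 rose and 0 fell with genotype in chow, while 0 rose and 2 fell in HFCF, where 11 of 12 estimates were lower (median -0.12, all genes -0.0015). The fall was called for Sar1b, the GTPase of the vesicles that carry VLDL precursors (211 ± 5.57 CPM in HFCF WT and 172 ± 2.47 in HFCF HuRHep-/- livers, log2 fold change -0.31, adjusted p = 0.0291), and for Mia3, a receptor for bulky cargo at the same exit sites (106 ± 4.6 and 86.6 ± 4.92 CPM, log2 fold change -0.31, adjusted p = 0.0440). Some of the other lower estimates were small, such as -0.015 for Surf4 and -0.13 for Lpcat3. With library totals in place of TMM factors the median over all genes moved to 0.15, so that the tally of lower estimates depends on the scaling. The calls of Sar1b and Mia3 were not followed over other settings. In chow, Sort1, a sorting receptor for Apob, rose from 12.2 ± 1.94 to 21.5 ± 2.40 CPM (log2 fold change 0.83, adjusted p = 0.0231). With diet, 3 of the 12 partners rose and 1 fell in WT (24.1% of all genes called), and 1 rose and 5 fell in HuRHep-/- livers (38.9%). P4hb, the partner subunit of Mttp, had 1163 ± 73.6 CPM in chow WT and 1510 ± 34.8 in HFCF WT livers (log2 fold change 0.38, adjusted p = 0.00456).

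**Figure D5:**
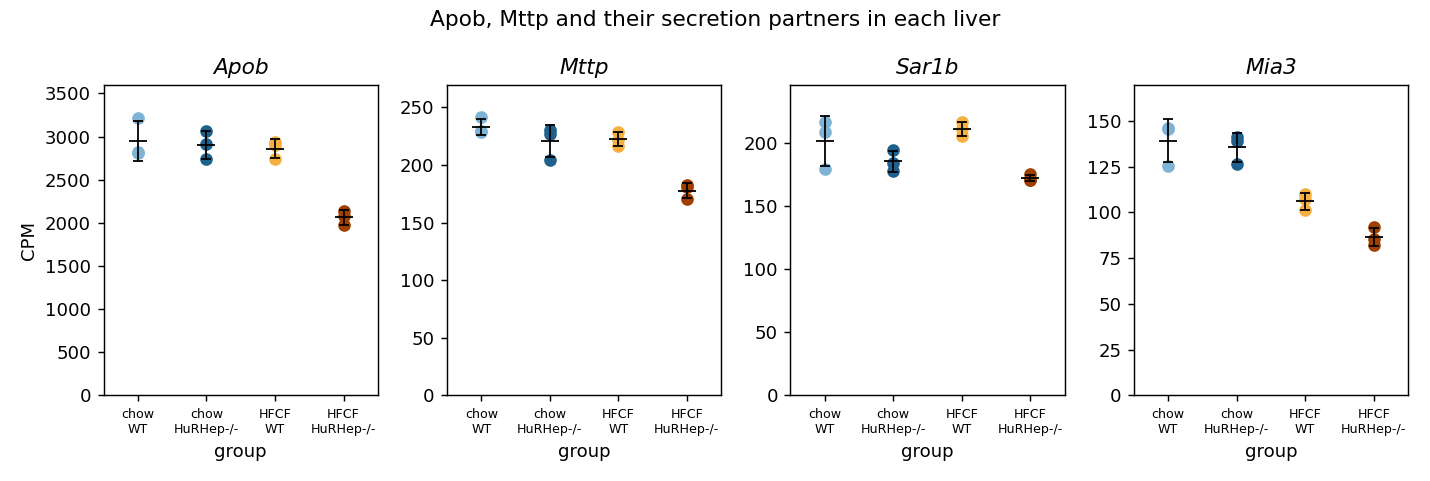
CPM of Apob, Mttp, Sar1b and Mia3 in each liver (points, n = 3 per group), with bars for the mean and SD and axes from 0. In all 4 genes the HFCF HuRHep-/- livers lie below the HFCF WT livers, with means of 172 against 211 CPM for Sar1b and 86.6 against 106 for Mia3.

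Of 12 other apolipoproteins and HDL proteins tested, 2 rose and 1 fell with genotype in chow, and 1 rose and 0 fell in HFCF (medians 0.15 and 0.0078). Apom, an HDL apolipoprotein, was called in both, at 206 ± 20.6 and 296 ± 10.1 CPM in chow WT and HuRHep-/- livers (log2 fold change 0.53, adjusted p = 0.0187) and at 74.3 ± 13.3 and 115 ± 7.75 CPM in HFCF (0.63, adjusted p = 0.0367). With diet Apom fell to 0.358 of its chow level in WT and 0.389 in HuRHep-/- livers. Saa1, an acute-phase protein of HDL, varied widely, from 21.2, 55.4 and 22.2 CPM in chow WT to 501, 1161 and 184 in chow HuRHep-/- livers (log2 fold change 4.01, adjusted p = 0.0211). The highest Saa1 was in chow HuRHep-/- replicate 2, and the highest Apoa4 of those livers was in replicate 1. Pon1, an HDL-bound esterase, fell from 794 ± 75.1 to 595 ± 33.1 CPM in chow (log2 fold change -0.41, adjusted p = 0.0468). With diet this list had 1 rise and 2 falls in WT (24.1% of all genes called) and 1 rise and 5 falls in HuRHep-/- livers (38.9%).

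Among 9 genes of lipolysis, 1 rose and 1 fell with genotype in chow (median -0.38), and none was called in HFCF (median -0.18). Lpl, the lipase that Apoc2 activates and a gene that the adult hepatocyte barely uses, had 21.7, 20.7 and 16.2 CPM in chow WT and 74.9, 47.4 and 39.0 CPM in chow HuRHep-/- livers (log2 fold change 1.42, adjusted p = 0.0212). It had 51.7, 19.3 and 56.6 CPM in HFCF WT and 110.7, 86.7 and 104.6 CPM in HFCF HuRHep-/- livers. Lipc, the hepatic lipase, was lower in chow HuRHep-/- livers (154 ± 14.8 against 118 ± 5.61 CPM, log2 fold change -0.38, adjusted p = 0.0444) and fell with diet in both genotypes. With diet 1 gene rose and 1 fell in WT (24.1% of all genes called), and 3 rose and 2 fell in HuRHep-/- livers (38.9%).

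Of 11 receptors and efflux genes, 0 were called with genotype in HFCF (median 0.11). With diet 2 rose and 1 fell in WT, and 2 rose and 2 fell in HuRHep-/- livers, with the cholesterol exporter Abcg1 2.65-fold and 2.99-fold higher. The shares of all genes called with diet, here and for the lists below, were 24.1% and 38.9%. None of the 4 factors of Apob mRNA editing was called with genotype. With diet 1 rose and 1 fell in WT, and 0 rose and 1 fell in HuRHep-/- livers. Rbm47, a cofactor of editing, fell in both genotypes (log2 fold change -0.55 and -0.36, adjusted p = 0.00614 and 0.0281). A1cf, another cofactor, rose in WT (log2 fold change 0.36, adjusted p = 0.0259), with an estimate of 0.25 in HuRHep-/- livers (adjusted p = 0.0708). Of 18 transcriptional regulators 0 were called with genotype under either diet (medians -0.088 and -0.13). With diet 2 rose and 3 fell in WT, and 1 rose and 5 fell in HuRHep-/- livers. Srebf1, which drives fatty acid synthesis, was 3.33-fold and 3.16-fold higher, and Hnf4a, a regulator of many apolipoprotein genes, was at 0.704 and 0.724 of its chow level (adjusted p = 0.00256 and 0.00199).

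Markers of other liver cells moved with several of these results. Summed hepatocyte markers were 118500 to 142100 CPM in chow WT, 102300 to 110900 in chow HuRHep-/-, 81350 to 96080 in HFCF WT and 80830 to 83360 in HFCF HuRHep-/- livers. Alb held the largest part of the sum, with means of 74060 CPM in chow WT and 52650 in chow HuRHep-/- livers. It was not called with genotype in chow (adjusted p = 0.359), where Trf, Tat and Fgb had higher estimates. Hepatocyte markers were lower with diet in 10 of 10 estimates in each genotype, of which 6 passed in WT and 5 in HuRHep-/- livers. Of all genes, 24.1% and 38.9% were called with diet. Apob, Mttp and Apoa1 fell with diet in HuRHep-/- livers and were not called in WT, and the interaction of genotype and diet did not pass for them (adjusted p = 0.204, 0.259 and 0.843). Recruited macrophage markers, all 10 detected, summed to 91.7 to 142 CPM in chow WT, 119 to 166 in chow HuRHep-/-, 132 to 327 in HFCF WT and 334 to 525 in HFCF HuRHep-/- livers. These sums overlapped between chow WT, chow HuRHep-/- and HFCF WT livers. Apoc2, a gene that macrophages also use, had no overlap between the groups. With diet 7 of 10 recruited macrophage markers rose in WT and 10 of 10 in HuRHep-/- livers. Stellate cell markers rose with diet in 3 of 10 in WT and 10 of 10 in HuRHep-/- livers, cholangiocyte markers in 0 and 5 of 5 tested, and lymphocyte and neutrophil markers in 0 and 3 of 7 tested. Of 10 Kupffer cell markers 3 rose with diet in WT, and 5 rose and 1 fell in HuRHep-/- livers. Of 8 sinusoidal endothelial markers 0 and 1 rose. Kupffer cell markers were higher with genotype in 10 of 10 estimates in chow and 9 of 10 in HFCF, with 0 called.

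Within the HFCF WT group, replicate 2 had the lowest Apoa4, Apoc2 and Lpl, and also the lowest summed markers of recruited macrophages (132 CPM against 221 and 327), Kupffer cells (291 against 339 and 480.0) and stellate cells (196 against 340.0 and 419). Without it the log2 fold change of Apoc2 with genotype in HFCF was 0.37 (adjusted p = 0.0856). The other groups were mixed. In chow WT, replicate 2 had the highest recruited macrophage sum (142 CPM) and the lowest Apoc2. In chow HuRHep-/-, replicate 2 had the highest sum (166) and replicate 1 the highest Apoc2, Apoa4 and Lpl. In HFCF HuRHep-/-, replicate 2 had the lowest sum (334) and Lpl, replicate 1 the lowest Apoc2 and Apoa4, and replicate 3 the highest sum, Apoc2 and Apoa4. In HFCF HuRHep-/- against HFCF WT livers, 3 of 5 cholangiocyte markers tested, 1 of 10 stellate and 1 of 10 recruited macrophage markers rose, beside 6.79% of all genes called. Estimates were higher for 5 of 5 cholangiocyte (median log2 fold change 1.40), 9 of 10 stellate (0.65), 10 of 10 recruited macrophage (1.09) and 7 of 7 lymphocyte and neutrophil markers tested (1.01, with 0 called), in the comparison where Apob and Mttp were called lower. Of 10 hepatocyte markers, 1 fell with genotype under each diet, the heme-binding Hpx (0.532 of the WT level in chow, adjusted p = 0.0213, and 0.329 in HFCF, adjusted p = 0.00236). In chow 3 of 10 estimates were higher and 7 lower, and in HFCF 5 of 10 were higher. Of the enterocyte markers, Lct was at 0 in both WT groups and Vil1 below 1 CPM in every group's mean. Fabp2, which carried the sum, rose 3.40-fold and 3.65-fold with diet. Summed sinusoidal endothelial markers overlapped between all groups (117 to 161 CPM), and summed lymphocyte and neutrophil markers were 2.81 to 3.59 CPM in HFCF WT and 6.18 to 7.28 CPM in HFCF HuRHep-/- livers. The part of these cells in the changes of the 10 genes was not tested.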

How the data were processed

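Total RNA of 12 livers was sequenced from stranded libraries. Per the study's methods, reads were aligned to GRCm38.p6 in CLC Genomics Workbench with reverse-strand alignment. The authors deposited unnormalized read counts per gene as text with digit commas, which were removed here, and 0 values were other than whole. The comparisons used limma, and no count model was fitted. Genes entered with a CPM worth 10 counts at the median depth in 3 libraries and 15 counts over all. Log2 CPM with a pseudocount of 0.5 and TMM factors (trims 0.3 and 0.05) was fitted with limma 3.58.1 in R 4.3.3 with a variance trend, within each diet for genotype and over 12 livers for diet and interaction. DEGs also had at least 10 counts over each group. The fits were tested on simulated data. Exon lengths, positions and overlaps are from GENCODE for GRCm38, matched by identifier, and a CPM per kb divides by the union of exons. Shared sequence was counted in words of 31 bases. The members and lists were chosen with earlier results of these data known. Named genes were the members, Elavl1, up to 4 genes per list and comparison with the smallest p among calls without overlap between groups, and the 5 genes nearest to the most variable member. The overlapping genes Gm10680 and Gm44805, the neighbour Apoc4 and Fabp2, Lct, Vil1 and Hpx were named after their values were seen. Alternatives were other scaling, filters, pseudocount, voom weights, a replicate block, other sets of libraries, leaving out each liver and, added after the data were seen, the summed counts of Apoc2 and Gm44805 and all alternatives for Elavl1. A result among the receptor genes is not reported here.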

Additional observations from a re-analysis of the deposited data

How the results depend on the processing

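The calls of Apoa4 and Apoc2 with diet were kept in every fit tried, in both genotypes. The number of members called for genotype in chow (1) was 2 with library totals alone, where Apoc2 joined, 0 with the replicate block, and 0 to 1 with a liver left out. For genotype in HFCF (2) it was 0 with the fold change of at least 1.5 added, 0 with library totals alone, 1 with the replicate block (Apob lost at adjusted p = 0.0564) and 0 to 2 with a liver left out. For diet in HuRHep-/- livers (5) it was 2 with the fold change added, 4 to 5 with a liver left out, 4 with the replicate block (Apoa1 lost at adjusted p = 0.0658) and 7 with library totals alone, where Mttp and Apoa1 were lost and Apoa5, Apoc1, Apoc3 and Apoe were called higher. Nothing in the labels pairs livers of the same replicate number, and whether the numbers mark pairs is not known: correlations of same-numbered deviations were -0.030, 0.109 and -0.0033 in chow and 0.088, 0.188 and 0.087 in HFCF, where each liver correlated best with its own number. With the block the call of Apoa4 in chow was lost (1.24, adjusted p = 0.0502) and all genes called went from 572 to 341 in chow and from 971 to 1341 in HFCF.

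Library totals alone moved the median log2 fold change of all genes to 0.085 and 0.15 (genotype in chow and HFCF) and to 0.19 and 0.23 (diet in WT and HuRHep-/-), and the share of calls that were higher from 54.2% to 73.0%, 41.9% to 81.2%, 46.8% to 82.5% and 50.8% to 84.4%. Upper-quartile factors moved this share to 53.2% for genotype in HFCF and to 56.9% and 63.5% for diet. Signs that turned were all of uncalled estimates. With library totals these were Apob 0.066 and Mttp 0.0061 (genotype in chow), Apoa5 0.12, Apoc1 0.0225 and Apoc3 0.018 (genotype in HFCF), and Apoa2 0.075, Apoa5 0.078, Apob 0.14, Apoc3 0.067 and Mttp 0.11 (diet in WT). With upper-quartile factors they were Apoa5 0.016 (genotype in HFCF) and Apob 0.0076 (diet in WT). With a liver left out the ranges crossed 0 for Apob in chow (-0.057 to 0.046), for Apoa4 (-0.018 to 0.39) and Apoa5 (-0.12 to 0.0825) in HFCF, for Apob (-0.075 to 0.0215) and Apoc1 (-0.083 to 0.11) with diet in WT, and for Apoa2 (-0.0024 to 0.16) and Apoc3 (-0.015 to 0.17) with diet in HuRHep-/- livers. The cause was not tested, other than that fewer livers enter each such fit. With 3 livers per group, small changes could not be told from the spread as limma estimated it.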
